A study of Mus musculus with 32 samples.

Results

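The cytosolic ribosomal protein genes encode the proteins of the ribosome that translates messages made in the nucleus. Members were the genes whose mouse symbol is Rpl or Rps followed by a number and at most 2 letters, with Rpsa, Rplp0, Rplp1 and Rplp2 added and names ending in -ps left out. The rule found 85 genes of the 41388 in the deposited tables, 52 of the large and 33 of the small subunit. Of these, 82 are annotated as protein coding, and Rpl37rt, Rpl6l and Rps4l are annotated as pseudogenes. The filter on low counts kept 82 members and removed Rpl10l, Rpl3l and Rpl6l.

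RNA had been sequenced from primary chondrocytes, the cells that make cartilage, isolated from femoral heads of unmanipulated inbred mice at postnatal day 21 and kept in culture for 4 days without passage. LG/J mice repair wounds of the ear and of cartilage well, and SM/J mice repair them poorly. Females and males of each strain gave 8 libraries per group in 4 groups, all grown in the same medium with serum. Since the labels name no separate animals or cultures behind the libraries, every p-value rests on a spread that may be technical.

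As background, each ribosomal protein is made in nearly equal amounts, because a ribosome holds a single copy of most of them. Their messages share a run of pyrimidines at the very start, the TOP sequence, through which growth signals set how well they are translated. Mammalian genomes carry many processed pseudogenes of these genes, intron-free copies made by reverse transcription of their abundant messages, and a short read from such a family can fit several places in the genome. A copy was here any annotated gene named as a -ps copy of a member, or with a transcript at least 90% identical to a member's coding transcript over at least 100 bases and a fraction of 0.5 of its own length. This found 820 copies of 79 members, 762 of them annotated as pseudogenes, of which 122 passed the filter. Among the 820 were 39 annotated miRNA genes.

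Some libraries stand apart from the rest. In the LG/J female and LG/J male libraries numbered 1, the summed level of 10 chondrocyte markers was 1743 and 2835 CPM (counts scaled to library size, with TMM factors), against 17080 to 46040 in the other 14 LG/J libraries, and that of 6 fibroblast markers was 26910 and 27210 CPM against 3207 to 9461. None of the 10 chondrocyte markers was at 0 in all libraries, and macrophage markers summed to 32.05 to 1748 CPM in LG/J and 92.1 to 1254 CPM in SM/J. Transcripts of both sexes were present in 6 libraries: 4 labelled female had 35.5 to 130 CPM of 4 Y-linked genes, where the other 12 had 0.3937 to 1.778 CPM. The 2 labelled male had 16.31 to 17.67 CPM of Xist, where the other 14 had 0.134 to 0.6062 CPM. In 6 pairs of libraries that an earlier look at these data had found close, the deviations from the group mean correlated at 0.34 to 0.80 across genes. The median among the other pairs of their groups was -0.27 to -0.16. The highest other pair was at 0.58 in SM/J females, beside 0.80 for the close pair, and at 0.33 in SM/J males, beside 0.34.

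The 85 genes together took a small share of each library. It ran from 0.882 to 2.43% of counts in LG/J, with a median of 1.845%, and from 1.58 to 2.45% in SM/J, with a median of 1.84%. The lowest shares were those of the LG/J libraries numbered 1, at 0.882% in the female and 1.01% in the male. In these libraries 75 and 74 of the 82 members kept lay below their group's median, and the median member was lower by 0.55 on the log2 scale in each (-0.55). Members moved together in other libraries too: LG/J female 2 had 79 of 82 above its group's median, and LG/J male 6 and LG/J female 8 each had 75 below it. The low chondrocyte and high fibroblast marker sums go with the libraries numbered 1. Macrophage markers summed to 535.1 and 418.2 CPM in those libraries and to 1748 CPM in LG/J male 6, while the remaining 13 LG/J libraries had 32.05 to 231.5 CPM, LG/J female 8 among them at 59.06 CPM. In SM/J the highest macrophage sum was that of female 2, at 1254 CPM. That library had a member share of 1.83% and 52 of 82 members above its group's median. The part of these markers in the shares was not tested. In bulk RNA, fewer cells of a type and less RNA per cell cannot be told apart.

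**Figure D1:**
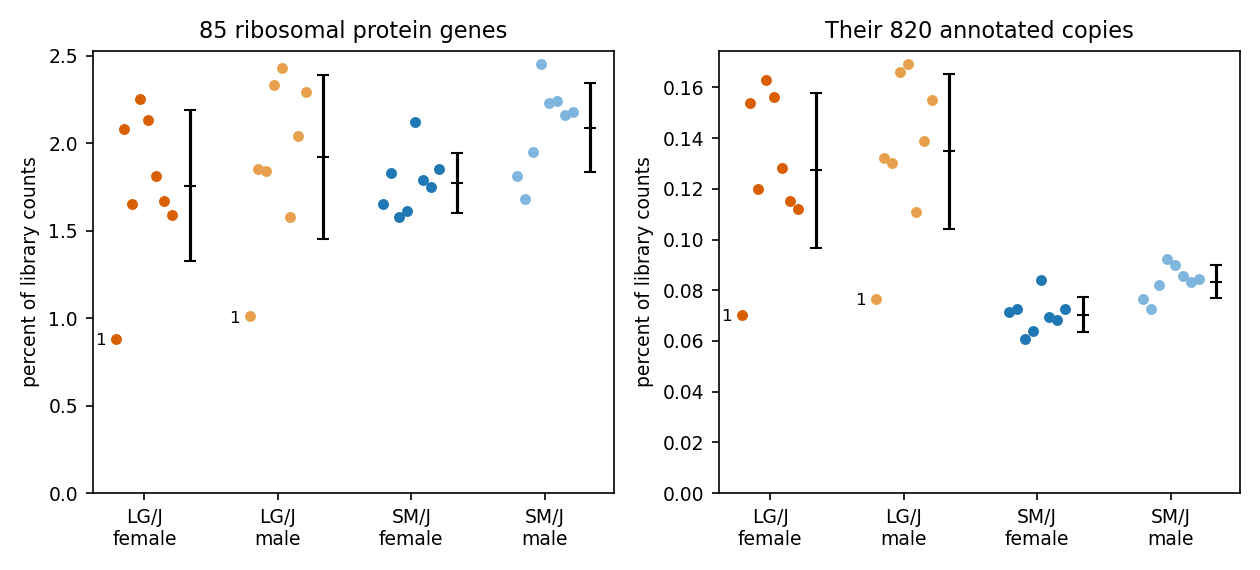
Percent of each library's counts (y axis) on the 85 members (left) and on their 820 annotated copies (right), 1 point per library in the 4 groups, with mean and SD as bars. The 2 LG/J libraries marked 1 have the lowest member shares, 0.882 and 1.01%, and copies take 0.0702 to 0.169% of counts in LG/J against 0.0607 to 0.0924% in SM/J.

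Copies took a larger part of the family's reads in LG/J. Of the reads on members and copies together, 6.32 to 7.38% fell on copies in the 16 LG/J libraries and 3.63 to 4.16% in the 16 SM/J libraries. The ranges do not overlap. The copies behind this difference are described with their parents below.

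Between the strains, 20 of the 82 members were called at an adjusted p under 0.05 in edgeR's quasi-likelihood test over both sexes, adjusted by Benjamini and Hochberg over 16136 genes. That is 24.4%, below the 29.9% called among all genes. LG/J was higher for 7 members, where 16.4% of all genes were called higher, and lower for 13, where 13.5% of all genes were called lower. By subunit, 4 large-subunit members were higher and 8 lower of 49, and 3 small-subunit members were higher and 5 lower of 33. The median member difference was -0.04 on the log2 scale, against 0.02 over all genes. Without the LG/J libraries numbered 1 that median was 0.03, and 50 of 82 members were higher in LG/J instead of 30. It moved the other way, to -0.15 with 17 members higher, when the 6 libraries of both sexes were left out. Summing the close pairs gave -0.09 with 22 higher, and leaving out both sets of libraries gave -0.04 with 25 higher. A log2 difference of 1 or more in size was found for 9 called members, where 7.76% of all genes reached it. The 16 libraries of each strain did not overlap for 8 called members, where 2.62% of all genes were called without overlap.

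Rps26, a small-subunit protein near the exit of the messenger RNA channel, had the largest difference in favour of LG/J. The gene lies at chr10:128624530-128626506 (GRCm38, minus strand). Scaled levels were 121.6, 219.3 and 275.4 CPM (lowest, median, highest of 16) in LG/J and 3.18, 4.304 and 5.455 CPM in SM/J. Every LG/J library was above every SM/J library, 49.6-fold on average (log2 5.63 ± 0.12 SE, edgeR adjusted p = 2.04e-27). Its copy Rps26-ps1, a transcribed processed pseudogene at chr8:107439176-107439585, had the mirror pattern. It had 0.2452, 0.5699 and 0.8983 CPM in LG/J and 97.51, 121.1 and 150.6 CPM in SM/J (log2 -7.80 ± 0.11, adjusted p = 7.62e-32). Copies held 0.15 to 0.555% of the family's reads in LG/J and 95.7 to 97.4% in SM/J. With copies added to the parent, LG/J was 1.67-fold higher (log2 0.74 ± 0.09, adjusted p = 5.87e-08) and the strains overlapped.

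Over the 345 bases of the Rps26 coding sequence, the reference copy differs at 2. The windows below are shown so that a reader can compare parent and copy. Each is the stretch of 60 coding bases with the most differences, 5′ to 3′ in the sense of the gene, read from the transcripts of a GENCODE annotation of GRCm38, with the bases that differ among the lines of a family in capitals. They show the reference, not LG/J or SM/J.
Rps26: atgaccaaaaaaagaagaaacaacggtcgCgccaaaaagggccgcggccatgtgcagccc
Rps26-ps1: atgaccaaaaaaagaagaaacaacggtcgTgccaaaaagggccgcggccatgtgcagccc
Rpl14: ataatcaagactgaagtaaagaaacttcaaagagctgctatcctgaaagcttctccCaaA
Rpl14-ps1: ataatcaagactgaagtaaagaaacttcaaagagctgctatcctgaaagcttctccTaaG
Rpl26: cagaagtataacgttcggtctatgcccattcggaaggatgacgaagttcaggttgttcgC
Gm15772: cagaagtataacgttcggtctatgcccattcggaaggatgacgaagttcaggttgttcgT
Rplp0: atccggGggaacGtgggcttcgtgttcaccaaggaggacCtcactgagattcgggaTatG
Gm8730: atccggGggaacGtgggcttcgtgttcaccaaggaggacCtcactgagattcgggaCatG
Gm9625: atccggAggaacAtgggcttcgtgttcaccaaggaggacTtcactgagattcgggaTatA
Rps28: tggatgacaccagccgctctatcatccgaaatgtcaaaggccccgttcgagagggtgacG
Gm10263: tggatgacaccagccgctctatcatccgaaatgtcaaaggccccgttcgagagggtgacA
Rps2: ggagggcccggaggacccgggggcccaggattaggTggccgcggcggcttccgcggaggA
Rps2-ps13: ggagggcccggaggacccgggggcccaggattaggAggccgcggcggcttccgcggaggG

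Rpl14, a large-subunit protein at chr9:120571517-120574653, had the largest difference in favour of SM/J. It had 4.358, 6.6 and 8.96 CPM in LG/J and 267.4, 330.4 and 397 CPM in SM/J, with no overlap (49.1-fold lower in LG/J, log2 -5.62 ± 0.10, adjusted p = 5.17e-29). Rpl14-ps1, at chr7:45324941-45325651, had 143.8, 262.2 and 329.5 CPM in LG/J and 17.71, 20.78 and 25.15 CPM in SM/J (log2 3.61 ± 0.10, adjusted p = 8.04e-24). Parent and copy differ at 4 of 648 aligned coding bases, with 1 gap. With the family summed, LG/J was lower by 1.34-fold (log2 -0.42 ± 0.09, adjusted p = 0.000741) and the strains overlapped.

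Rpl26, whose protein also binds the message of p53, followed the same pattern with a copy on another chromosome. Rpl26, at chr11:68901583-68906989, had 3.144, 8.105 and 13.25 CPM in LG/J and 112.7, 136.6 and 176.7 CPM in SM/J (16.7-fold lower in LG/J, log2 -4.06 ± 0.12, adjusted p = 2.65e-23). The predicted gene Gm15772, a processed pseudogene at chr5:3236431-3236868 that differs at 2 of 435 coding bases, had 41.86, 67.54 and 95.7 CPM in LG/J and 0.1312, 0.2834 and 0.6813 CPM in SM/J. Copies held 84.9 to 93.3% of the family's reads in LG/J and 0.544 to 1.59% in SM/J. Summed, LG/J remained lower in all libraries, by 1.76-fold (log2 -0.82 ± 0.08, adjusted p = 7.13e-10).

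Rplp0, the base of the stalk that recruits elongation factors, was split among more copies. It lies at chr5:115559467-115563727 and had 487.6, 746.1 and 949.7 CPM in LG/J and 1454, 1782 and 2122 CPM in SM/J, with no overlap (2.35-fold lower in LG/J, log2 -1.23 ± 0.08, adjusted p = 1.07e-13). Its 4 copies were all higher in LG/J. They are less alike to the parent than the copies above: Gm8730 differs at 12 of 951 coding bases and Gm9625 at 24, with 1 gap. Rplp0-ps1 is 94.09% identical over 948 aligned bases. Gm8730 (chr8:102864779-102865853) averaged 190.1 ± 38.58 CPM (SD, n = 16) in LG/J and 4.332 ± 0.7571 in SM/J, and Gm9625 (chr13:67810246-67811200) averaged 181.6 ± 36.15 and 3.963 ± 0.6899. Rplp0-ps1 averaged 16 ± 2.795 and 0.4031 ± 0.1198 CPM, and Gm14165 averaged 3.042 ± 0.5481 and 1.066 ± 0.2954 CPM. Copies held 33.2 to 35.1% of the family's reads in LG/J and 0.452 to 0.704% in SM/J. Summed, LG/J was lower by 1.56-fold without overlap (log2 -0.64 ± 0.08, adjusted p = 3.32e-07).

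The other stalk proteins, Rplp1 and Rplp2, pair with each other on Rplp0. Rplp1 averaged 653.3 ± 165.1 CPM in LG/J and 651.4 ± 93.03 in SM/J (log2 0.01 ± 0.10, adjusted p = 0.951). Its copy Gm11942 was called lower in LG/J by 53.5-fold, averaging 0.7921 ± 0.2481 against 43.08 ± 5.202 CPM, a small part of the family. Rplp2 averaged 372.2 ± 68.86 and 418.9 ± 52.84 CPM (log2 -0.16 ± 0.08, adjusted p = 0.111).

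**Figure D2:**
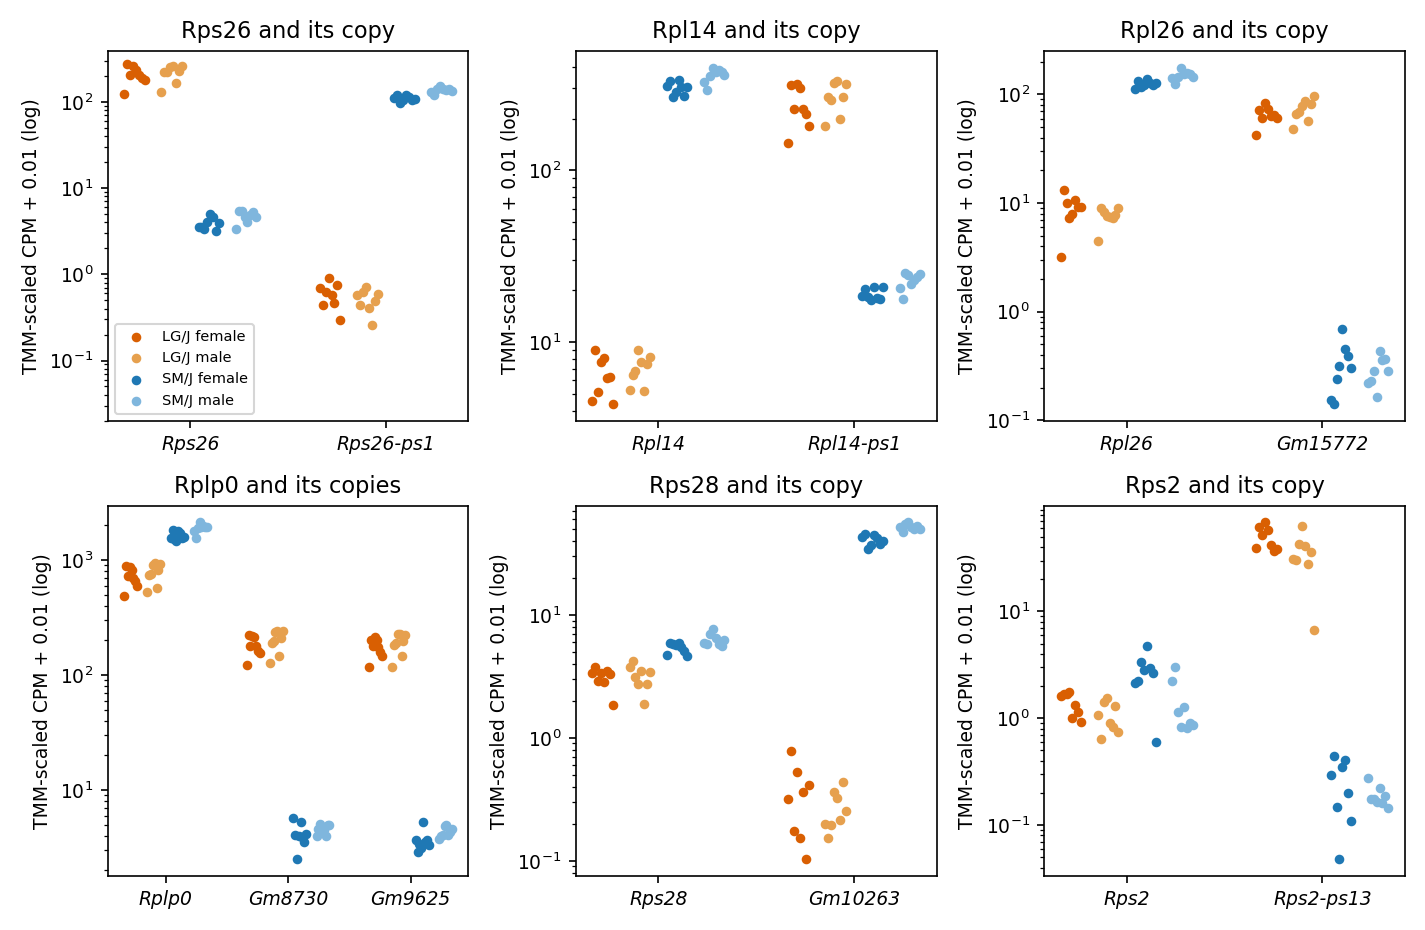
TMM-scaled CPM plus 0.01 on a log axis (y) for 6 parents and their copies (x), 1 point per library, coloured by strain and sex. For Rps26, LG/J libraries are high on the parent and low on the copy, and for Rpl14, Rpl26 and Rplp0 they are low on the parent and high on the copies.

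For Rps28 and Rps2 the copies held most of the strain difference, and summing made it larger. Rps28, a small-subunit protein at chr17:33819027-33824562, had 1.835, 3.304 and 4.181 CPM in LG/J and 4.655, 5.828 and 7.682 CPM in SM/J (1.86-fold lower, log2 -0.90 ± 0.10, adjusted p = 6.4e-09). Gm10263, which differs at 1 of 207 coding bases, had 0.0937, 0.2767 and 0.7654 CPM in LG/J and 34.31, 46.08 and 56.52 CPM in SM/J. The summed family was 13.3-fold lower in LG/J (log2 -3.73 ± 0.09, edgeR adjusted p = 3.11e-26). Such a sum lacks any reads dropped for fitting several places or lying on unannotated copies. Rps28 overlaps Kank3 on the opposite strand, and the strand setting of the counting is not given in the sources used here.

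Rps2, which lines the entry of the messenger RNA channel, changed direction. The parent at chr17:24718116-24721929 had 0.6248, 1.209 and 1.749 CPM in LG/J and 0.588, 2.176 and 4.726 CPM in SM/J, and was called 1.59-fold lower in LG/J (log2 -0.67 ± 0.22, adjusted p = 0.0186). Females averaged 1.384 ± 0.3371 CPM (SD, n = 8) in LG/J and 2.672 ± 1.169 in SM/J, and males 1.046 ± 0.3333 and 1.373 ± 0.8048. The call was made in females (log2 -0.95, edgeR adjusted p = 0.0325) and not in males (log2 -0.38, edgeR adjusted p = 0.417), and the difference between the sexes was not called (edgeR adjusted p = 0.837). The strains overlapped, and the call over both sexes was lost (log2 -0.50, edgeR adjusted p = 0.132) once the 6 libraries holding transcripts of both sexes were left out. It was also lost with limma voom. Rps2-ps13, on the X chromosome and different at 7 of 882 aligned bases, had 6.766, 40.24 and 68.18 CPM in LG/J and 0.03824, 0.1724 and 0.4374 CPM in SM/J. With its 38 copies added, Rps2 was 5.58-fold higher in LG/J (log2 2.48 ± 0.17, adjusted p = 2.16e-13), and the ranges overlapped at 10.76 to 13.5 CPM. Rps2 overlaps Snhg9 on the opposite strand.

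In the remaining members with a large difference, copies did not carry a mirror pattern. Rpl35a, a large-subunit protein whose human gene is mutated in some patients with Diamond-Blackfan anaemia, lies at chr16:33056453-33060189. It had 6.88, 9.806 and 14.73 CPM in LG/J and 99.5, 121.7 and 160.9 CPM in SM/J, with no overlap (12.4-fold lower in LG/J, log2 -3.63 ± 0.08, adjusted p = 1.18e-26). Its 21 annotated copies summed to 2.632 ± 0.5813 CPM in LG/J and 2.111 ± 0.4913 in SM/J, so the family remained 10.1-fold lower (log2 -3.33 ± 0.07, adjusted p = 9.28e-27).

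Rpsa, a small-subunit protein also known as a laminin receptor, lies at chr9:120127766-120132369. It had 3.345, 5.019 and 6.956 CPM in LG/J and 13.95, 18.8 and 21.97 CPM in SM/J (3.67-fold lower, log2 -1.87 ± 0.10, adjusted p = 1.89e-16). Its 15 copies together summed to 8.213 ± 2.122 CPM in LG/J and 14.41 ± 1.675 in SM/J, and the summed family was 2.49-fold lower in LG/J, without overlap (log2 -1.31 ± 0.10, adjusted p = 1.3e-12).

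Rpl39l, a paralog of Rpl39 best known from male germ cells, has no annotated copy, and all of its 50-base words occur in no other gene. It lies at chr16:10170226-10174911 and had 1.541, 2.758 and 4.02 CPM in LG/J and 5.643, 9.454 and 14.87 CPM in SM/J, with no overlap (3.52-fold lower, log2 -1.82 ± 0.13, adjusted p = 2.28e-13). The summed level of 6 male germ line markers was 0.1435 to 1.124 CPM in LG/J and 0.175 to 0.9274 CPM in SM/J.

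Rps4l, annotated as a transcribed processed pseudogene at chr6:148354656-148355598, had 16.77, 30.31 and 40.53 CPM in LG/J and 27.25, 60.31 and 84.28 CPM in SM/J (2-fold lower, with an SE of 0.13 on the log2 scale, adjusted p = 2.87e-07). The strains overlapped. Its 1 annotated copy averaged 0.009987 ± 0.0217 CPM (SD) in LG/J and 0.0317 ± 0.03672 in SM/J, too few reads to show a mirror pattern. Rps4l lies within Tmtc1, which is on the opposite strand. Rpl24, a large-subunit protein, was counted at few reads, 590 in all 32 libraries, with 0.5053, 1.218 and 1.866 CPM in LG/J and 0.2677, 0.5281 and 1.206 CPM in SM/J (2.04-fold higher, log2 1.03 ± 0.18, adjusted p = 5.24e-05). With its 5 copies added the difference was 1.3-fold (log2 0.37 ± 0.13, adjusted p = 0.0253), and the call was lost when the 6 libraries holding transcripts of both sexes were left out (adjusted p = 0.193).

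**Figure D3:**
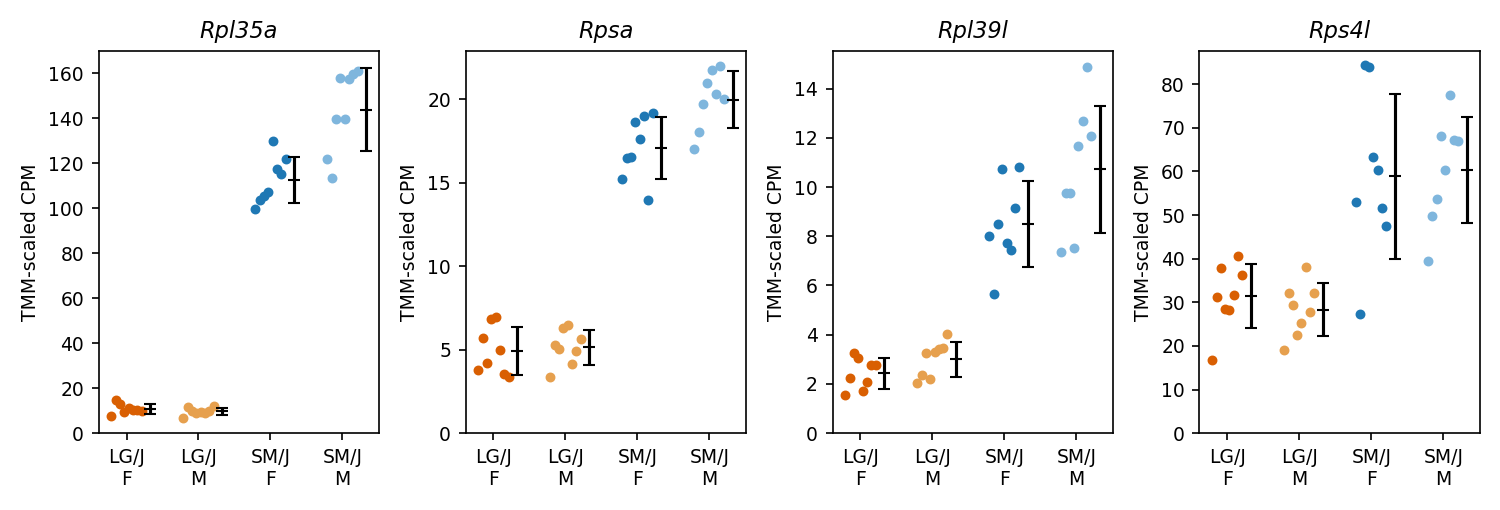
TMM-scaled CPM (y) of Rpl35a, Rpsa, Rpl39l and Rps4l in females (F) and males (M) of both strains (x), 1 point per library, with mean and SD as bars. Rpl35a lies between 6.88 and 14.73 CPM in LG/J and between 99.5 and 160.9 CPM in SM/J, while Rps4l overlaps between strains.

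Rps14, Rpl23a and Rpl28 were called with smaller differences. Rps14 was 1.74-fold higher in LG/J, with 589.9, 1030 and 1399 CPM against 477.2, 582.9 and 791.6 CPM (log2 0.80 ± 0.10, adjusted p = 7.14e-08), and its copies left that value at 0.80. Rpl23a was 1.83-fold higher (log2 0.87 ± 0.19, adjusted p = 0.000773) at 0.6781 to 3.967 CPM in LG/J and 0.8069 to 1.965 CPM in SM/J, and 1.41-fold higher with its 29 copies added. Rpl23a overlaps Tlcd1 on the opposite strand. Rpl28 was 1.5-fold lower (log2 -0.59 ± 0.10, adjusted p = 1.63e-05). The called members below that size were Rpl5, Rps18 and Rpl41, higher in LG/J, and Rpl27, Rpl21 and Rps27l, lower. Rpl5 and Rps18 overlap Fam69a and Vps52 on the opposite strand. Rps27l, a paralog of Rps27 that p53 induces, was lower by 1.16-fold (log2 -0.21 ± 0.08, edgeR adjusted p = 0.0382). It lost its call in 20 of 45 alternative fits, among them that without the LG/J libraries numbered 1 (edgeR adjusted p = 0.0837).

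With copies summed into their parents and the whole table fitted again, 20 of 82 members were called, 8 higher and 12 lower in LG/J. All genes were called higher at 16.2% and lower at 13.7% in that fit. The 20 were the same genes as for the parents alone, and 19 kept their direction, Rps2 being the exception. Called without overlap were 6 members, Rpl26, Rpl35a, Rpl39l, Rplp0, Rps28 and Rpsa, beside 2.55% of all genes. A difference of 1 or more on the log2 scale was left for Rpl35a, Rpl39l, Rps2, Rps28, Rps4l and Rpsa. The sums do not depend on where reads were placed only if none were dropped for fitting several places or fell on unannotated copies. That was not tested, so a summed difference need not be one of the family's whole output.

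**Figure D4:**
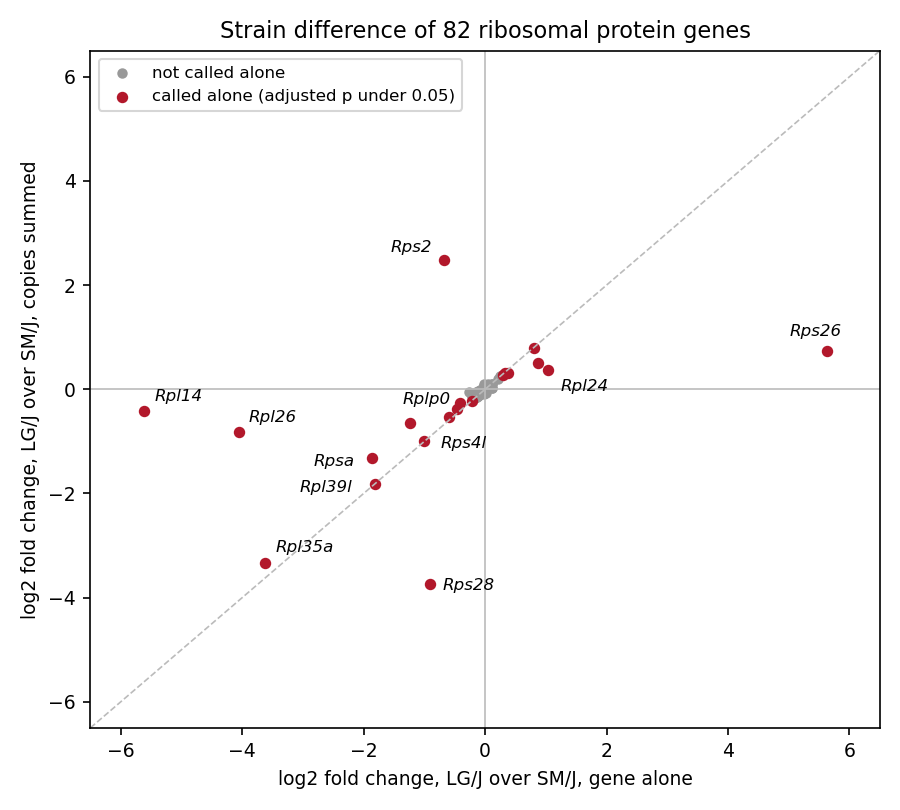
Log2 fold change of LG/J over SM/J for 82 members, for the gene alone (x) and with its annotated copies summed (y), with members called alone in red and the line of equal values dashed. Rps26, Rpl14 and Rpl26 fall toward 0 on the y axis (0.74, -0.42 and -0.82), Rpl35a and Rpl39l stay near the dashed line, and Rps28 and Rps2 move to -3.73 and 2.48.

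Among the copies themselves, 14 were called higher and 10 lower in LG/J of 122 kept. That is 19.7%, beside 29.9% of all genes (16.4% higher, 13.5% lower). Of the 122, 10 were called without overlap, beside 2.62% of all genes. Copies could also hold more counted reads than the parent with no strain difference. Gm6472, a copy of Rps7, averaged 174.4 ± 49.19 CPM in LG/J and 176.2 ± 29.78 in SM/J, while Rps7 averaged 77.4 ± 18.11 and 72.02 ± 10.63. Rpl3-ps1 averaged 91.21 ± 26.67 and 83.44 ± 15.38 CPM, while Rpl3 averaged 24.92 ± 7.509 and 23.97 ± 5.706. These values are not scaled by gene length, and Rpl3 overlaps Syngr1 on the opposite strand.

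The strain differences were alike in direction in both sexes where both were called. In females 16 of 82 members were called (6 higher, 10 lower in LG/J, 19.5%), beside 13.4% of all genes. Without the LG/J libraries numbered 1, 23 were called in females, 13 of them higher, beside 15.9% of all genes in that fit. In males 15 were called (3 higher, 12 lower, 18.3%), beside 22.3% of all genes. The same 12 members were called in both, all in the same direction, among them Rps26, Rpl14, Rpl26, Rpl35a, Rpsa, Rpl39l, Rplp0, Rps28 and Rps14. Rpl24, Rpl41, Rpl5 and Rps2 were called in females and not in males, and Rpl21, Rpl27 and Rps27l in males and not in females. No member was called by edgeR for a strain difference that differed between the sexes, beside 0.0062% of all genes (1 gene). At an unadjusted p under 0.05 in edgeR there were 8 of 82 members, beside 1345 of all 16136 genes. DESeq2 and limma voom called 0 members as well, beside 0.31 and 1.6% of all genes. The value in males minus that in females was negative for 78 of 82 members (median -0.19), and it was positive for 28 of 82 (median -0.07) once the 6 libraries holding transcripts of both sexes were left out. Members move together across libraries, so these signs are not independent of each other.

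The sex difference of the members depended on the libraries and the tool, and 6 of the libraries compared hold transcripts of both sexes. In edgeR over both strains 2 of 82 members were called (2.44%), both higher in males, beside 3.46% of all genes. Rps15, a small-subunit protein, averaged 273.7 ± 48.33 and 305.6 ± 59.25 CPM (SD, n = 8) in LG/J females and males and 261 ± 17.03 and 346 ± 36.5 CPM in SM/J (log2 0.28, edgeR adjusted p = 0.0343). Rpl35, a large-subunit protein, averaged 145.9 ± 35.51 and 161.9 ± 37.9 CPM in LG/J and 137.3 ± 9.694 and 195.3 ± 17.98 CPM in SM/J (log2 0.33, adjusted p = 0.0393). The male value was higher for 72 of 82 members, with a median of 0.18 against -0.01 over all genes, and since members move together these signs are not independent. Neither call held when the close pairs were summed (edgeR adjusted p = 0.197 and 0.213), where 0.19% of all genes were called. Without the LG/J libraries numbered 1, 12 members were called higher, beside 5.68% of all genes called in either direction. Without those and the 6 libraries of both sexes 23 were called higher, beside 5.88%. With limma voom 39 were called higher and 1 lower, beside 10.9%. Leaving out each library in turn gave 0 to 13 members called higher in males, beside 1.92 to 5.9% of all genes. Rpl35 overlaps Wdr38 on the opposite strand.

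Per gene length, the counted level of the members spanned a wide range. The highest CPM per kilobase of gene length (RPKM) over the 32 libraries were those of Rpl32 (1952 ± 497.5), Rpl4 (1458 ± 291.2) and Rpl8 (1389 ± 220.1), all of the large subunit. The lowest among members kept were Rpl24 (0.8557 ± 0.4299), Rps2 (0.8869 ± 0.5429) and Rps6 (1.217 ± 0.2695), the last a target of S6 kinase. Rps27a, made as a fusion with ubiquitin, had 8.415 RPKM and no strain call (log2 0.01, adjusted p = 0.964). Rps6 (log2 0.05, adjusted p = 0.791) and Rpl36al, a paralog of Rpl36a (54.12 RPKM, log2 -0.06, adjusted p = 0.62), were not called either. Rpl3l, a paralog of heart and skeletal muscle, had 87 reads in 32 libraries, and Rpl10l, a testis paralog, had 19.

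The counted level went with how much of a transcript is found nowhere else. For 80 coding members kept, the share of 50-base words of the transcript that occur in no other annotated gene ran from 1.351 to 100%. The 16 members with 80% or more had a median of 246.1 RPKM, the 49 between 20 and 80% had 23.24 RPKM, and the 15 below 20% had 7.806 RPKM. Spearman's rho across these 80 genes was 0.57, and -0.52 between RPKM and the number of annotated copies. The genes share the same libraries, and the correlations are given as a description. Exceptions lie on both sides: Rpl35 had 129.3 RPKM with 4.91% such words, and Rpl39l had 7.422 RPKM with 100%.

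**Figure D5:**
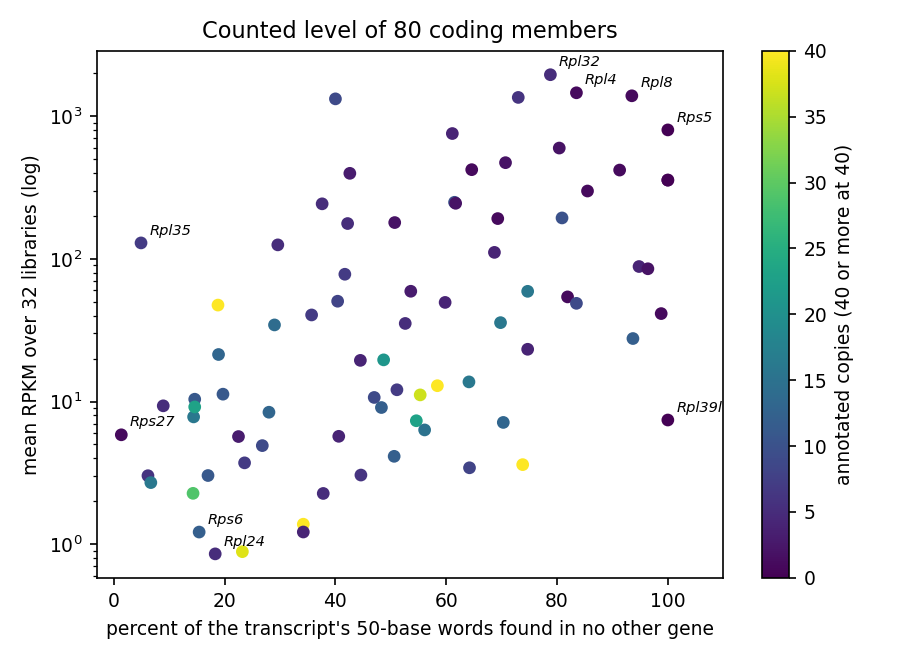
Mean RPKM over 32 libraries on a log axis (y) against the percent of the transcript's 50-base words found in no other gene (x) for 80 coding members, coloured by number of annotated copies. Rpl4 and Rpl8 are high on both axes, and Rps6 and Rpl24 are low on both.

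A run of pyrimidines near the annotated start was more frequent among member promoters than among all promoters. Of the members, 63 matched the RefSeq promoter table (GRCm38.p6). A C followed by at least 5 bases that are each C or T, on the gene's own strand and beginning within 25 bases of an annotated start, was found for 42 of 63 members (66.7%) and for 38.5% of 27025 genes. With at least 4 such bases and a beginning at the annotated base itself, it was found in 18.7% of 75 member promoters and 2.51% of 32851 promoters. Within 2, 5 and 10 bases the shares were 30.7, 41.3 and 54.7% of member promoters against 8.96, 18.3 and 30.7%. These windows were chosen after looking at the promoters, and a match is a description, not a mapped start. The 50 bases around the start are shown for 4 members of the comparisons above. The first run with at least 5 bases after the C is in capitals. Such a run was also found for Rpl39l, Rps15 and Rps2, which are not shown. In Rpl39l it began at the first base of the window, upstream of the annotated start. In the windows of Rpl24, Rpl26, Rplp0, Rps28 and Rpsa no such run was found, nor in 2 of the 3 windows of Rpl35a, which has 3 annotated starts.
Rps26 (chr10:128626482-128626531, minus strand): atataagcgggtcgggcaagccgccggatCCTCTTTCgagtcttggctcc
Rpl14 (chr9:120571492-120571541, plus strand): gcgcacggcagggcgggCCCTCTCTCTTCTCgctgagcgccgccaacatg
Rpl35a (chr16:33056457-33056506, plus strand): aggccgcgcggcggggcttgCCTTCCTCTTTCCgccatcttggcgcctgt
Rpl35 (chr2:39005107-39005156, minus strand): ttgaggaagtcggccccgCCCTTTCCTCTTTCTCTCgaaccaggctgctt

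The ribosomal protein genes named next lie outside the symbol rule and had no strain call. Rps3a1, Fau, Rack1, Rpl22l1 and Rpl7l1 had log2 differences from -0.11 (Rack1) to 0.03 (Rps3a1), and edgeR, DESeq2 and limma voom called 0 of these, with 0 at an unadjusted p under 0.05 in edgeR.

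Genes that build ribosomes or work with them were called at 29.3 to 36.7%, beside the 29.9% of all genes, of which 16.4% were called higher and 13.5% lower. Of 75 ribosome biogenesis factors, 5 were higher and 17 lower in LG/J (29.3%, median -0.10 against 0.02 over all genes). These counts were 8 and 7 without the 8 libraries that stand apart or hold transcripts of both sexes, 2 and 9 with scaling by library size only, and 2 and 11 with close pairs summed. Gnl3l, a nucleolar GTPase, was 2.34-fold lower in LG/J (129 ± 9.565 against 302.8 ± 27.63 CPM, edgeR adjusted p = 6.58e-21), and Rrp8, which methylates ribosomal RNA, was 1.62-fold higher (adjusted p = 1.62e-08). Of 16 genes of RNA polymerase I transcription, 2 were higher (4 without those 8 libraries) and 3 lower, among them Polr1b, a core subunit, 1.78-fold higher (adjusted p = 3.4e-10). The translation factor list, which had 30 genes kept, was drawn up for messages of the TOP class and their regulators, and also held genes such as Vim and Hnrnpa1. Of the 30, 8 were higher and 3 lower (6 lower without SM/J male 1), among them Eef1g, an elongation factor subunit, 1.9-fold lower (edgeR adjusted p = 1.16e-10). Of 76 mitochondrial ribosomal proteins, 5 were higher and 20 lower (32.9%, median -0.10), among them Mrpl39, 2.3-fold lower (28.26 ± 2.968 against 64.93 ± 10.07 CPM, adjusted p = 8.11e-16). The count lower was 11 without those 8 libraries or with close pairs summed, and 12 with scaling by library size only.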

How the data were processed

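The 32 tables held whole-number read counts for 41388 Ensembl genes, beside CPM and RPKM that the authors deposited with them. The deposited CPM equalled count over library total, and the deposited RPKM that CPM over gene length. Per the submitters' processing notes, STAR 2.0.4b, featureCounts 1.45 of Subread and the GRCm38 build were used. Strand setting, annotation release and treatment of reads with several alignments: not given in the sources used here. Total counts ran from 15840330 to 25571598 per library.

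Groups came from the sample titles. Counts were filtered with filterByExpr, TMM-scaled and fitted over all 32 libraries with the robust quasi-likelihood model of edgeR 4.0.16 (R 4.3.3), with p-values adjusted over all genes kept. The standard error (SE) is the log2 fold change over the square root of F. A second fit added copies, found by name or with blastn 2.17.0, to their parents. Alternatives were other scalings and filters, DESeq2 1.42.0, limma 3.58.1 voom, a replicate block, and libraries left out or pairs summed; some of these were extended to the sexes and the other lists after seeing the data.

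The members, the lists and the libraries set aside were chosen with earlier results of these data known. Named in full were called members with a log2 difference of 1 or more in size; named more briefly were those of 0.5 or more, calls for sex, paralogs, stalk proteins, Rpsa, Rps27a, Rps6, the 3 highest and lowest RPKM, copies of members with large differences, and up to 3 called genes per other list. Rps28, Rps2 and Rplp1 copies, Gm6472 and Rpl3-ps1 were chosen after their values were seen. 1 gene of the lists is not reported here.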

Additional observations from a re-analysis of the deposited data

Results flagged for a closer look

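In 88 tests of a group of 8 libraries, each for 1 named member or share, 5 had a library whose gap to its nearest neighbour, as a share of the group's range, exceeded Dixon's critical value, where chance flags about 1 in 20 groups. In 4 of the 5 the library was an LG/J library numbered 1 and lay lowest. Rpl26 was at 4.42 CPM in LG/J male 1, with the next library at 7.23 CPM. Rpl28 was at 15.1 CPM in LG/J female 1 (next 29.1) and at 18.4 CPM in LG/J male 1 (next 31.7). Rpl36al was at 41.7 CPM in LG/J female 1 (next 67.5). The other was Rpl28 in SM/J female 5, highest at 51.6 CPM (next 43.2). The cause was not tested.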

How the results depend on the processing

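Of 994 recomputed counts, 914 stayed within 1.5 times the reported one, and of 2647 recomputed values for named genes and copies none turned direction while called and 90 lost their call (all of them values of Rps27l, Rps2, Rpl24 with copies summed, and the sex difference of Rpl35 and Rps15), while Rplp2 gained one with limma voom and with the replicate block. Members called over both sexes stayed within that range under every alternative run, and leaving out each library gave 7 to 9 higher and 12 to 14 lower. With copies summed, 5 were higher without the 6 libraries of both sexes (7 to 10 higher and 11 to 12 lower when leaving out each library), and with copies by name only Rpl26, Rplp0 and Rps28 stood at -3.99, -1.21 and -0.90. In females 13 were higher without the LG/J libraries numbered 1, where 15.9% of all genes were called. In males 5 were higher with a stricter filter, with DESeq2 or without those libraries, 6 with limma voom and 3 to 5 when leaving out each library. The sex difference was least stable: 0 higher with no filter, with library size only (1 lower) or with close pairs summed, 4 with DESeq2, 39 with limma voom (1 lower), 12 without the LG/J libraries numbered 1, 23 without those and the libraries of both sexes, and 0 to 13 higher and 0 to 1 lower when leaving out each library, with 13 without LG/J male 1. Among biogenesis factors, higher and lower were 2 and 9 with library size only, 2 and 11 with close pairs summed and 8 and 7 without those 8 libraries, with 2 higher with no filter, 9 lower without the libraries of both sexes and 2 to 6 higher when leaving out each library. RNA polymerase I genes had 4 higher without those 8 libraries. The translation factor list had 5 lower with limma voom and 3 to 6 when leaving out each library (6 without SM/J male 1). Mitochondrial ribosomal proteins had 12 lower with library size only, 11 without those 8 libraries or with close pairs summed, and 8 higher with limma voom. With the replicate block 7 members were higher and 14 lower by strain, the sex difference had 6 higher and the translation factor list had 6 lower. Same-numbered libraries of different groups correlated at -0.45 to 0.84 (median 0.14), with 30 of 48 over 0.1. Of 32 libraries, 7 were closest to their own number, so the numbers are not taken as pairs. Annotated copies called higher and lower numbered 32 and 22 with no filter and 9 and 6 with a stricter one. Over the alternatives, 0.19 to 10.9% of all genes were called for sex. Leaving out the LG/J libraries numbered 1 moved the median member difference by strain from -0.04 to 0.03. Leaving out the 6 libraries of both sexes moved it to -0.15. The causes were not tested. At the depth of these libraries, members such as Rpl24 and Rps2 rest on few reads.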
